A study of Mus musculus with 14 samples.

Results

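The genes described here lie on mouse chromosome 19 around Fas, the gene whose lpr allele separates the lupus-prone mice of this study from their controls. They were all genes of the GENCODE M21 annotation that fell wholly between 31.3 and 37.3 Mb of mm10, about 3 Mb on each side of Fas, with Fas itself and the Ifit genes left out. Of 108 genes in the interval, 1 was Fas and 6 were Ifit genes, and 70 of the remaining 101 had at least 10 counts summed over the 14 libraries. These 70 members, 35 of them protein coding, belong to the 38070 genes tested in the whole series. Of the 31 genes below the minimum, 15 had no counts. The member nearest to the minimum, Gm8978, had 10 counts, and the genes just below it, A1cf and Lipo5, had 9. Of the members, 32 lie on the centromeric and 38 on the telomeric side of Fas, from Asah2, which starts at position 31982597, to Rpl10-ps6, which ends at 37295796.

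Fas is a death receptor of the tumor necrosis factor receptor family, and the lpr allele carries a retrotransposon in an intron that cuts the full-length transcript short. A congenic strain is made by repeated backcrossing with selection for 1 allele, and it can carry a stretch of donor chromosome on either side of that allele. The genes around Fas have unrelated roles. They include a cluster of acid lipases, enzymes that split ester bonds of neutral lipids in lysosomes, the stomach or the skin, and genes of sterol, sphingolipid and inositol phosphate metabolism, protein turnover and RNA processing.

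Hippocampal RNA of mice aged 10 months was sequenced, each mouse giving 1 library. The 4 MRL mice were B6.MRL-Faslpr/J, which carry lpr on a C57BL/6 background, and the 4 MRL-IRAK4-KD mice came from a cross of these with mice whose IRAK4, a kinase of Toll-like and interleukin-1 receptor signaling, is kinase-dead. The 3 C57BL6/J mice were labelled with neither allele, and the 3 IRAK4-KD mice with the kinase-dead IRAK4 alone. All 4 groups shared the C57BL/6 background, and the mice were perfused before dissection. MRL and MRL-IRAK4-KD are called the lpr groups below, and C57BL6/J and IRAK4-KD the non-lpr groups. Whether mice of a group were littermates is not stated, so p-values measure the spread between these mice.

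The library labelled IRAK4-KD replicate 3 went against its label at Fas itself and was kept apart. The full-length Fas transcript of 9 exons had 0 counts in it and in all 8 lpr libraries, and between 345 and 584 counts in the 5 other non-lpr libraries. A Fas transcript annotated with 10 exons had 514 counts in it, between 268 and 964 in the lpr libraries and at most 7 in the 5 other non-lpr libraries. Comparisons were therefore made between 8 lpr and 5 non-lpr mice, and values with all 14 libraries by label are given where they differ.

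Library totals ranged from 279941472 to 572398312 counts, and values of single mice are given as CPM, counts scaled to a common library size by TMM. The library MRL-IRAK4-KD replicate 4 stood apart from the other 13, with a score of 122 on a first principal component that held 47% of the variance, where the others lay between -21 and 5.14. It had 1.402 counts per read listed by the sequencing core, against 1.800 to 2.083 in the other libraries, and the summed level of 5 choroid plexus markers was 7755 CPM in it, against 64.0 to 1641 CPM across MRL, C57BL6/J and IRAK4-KD mice. The lowest choroid plexus sum of an MRL-IRAK4-KD mouse was 149 CPM. As a check of the tissue, the summed level of 5 hippocampal neuron markers lay between 1709 and 3380 CPM in all 14 libraries. The highest of these sums, 3380 CPM, was in MRL-IRAK4-KD replicate 4.

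The flanking genes spanned a wide range of levels. Of the 70 members, 28 had a mean of at least 1 CPM, 11 had between 0.1 and 1 CPM and 31 had less than 0.1 CPM. Per kilobase of exon, the mean level was highest in Rpl9-ps6, a ribosomal protein gene copy, with 29.8 CPM per kb, in March5, a ubiquitin ligase of the mitochondrial outer membrane, with 22.0 CPM per kb, and in Ppp1r3c, which targets a protein phosphatase to glycogen, with 17.4 CPM per kb. Lipa had 3.40, Rpp30 2.67, Rnls 0.711, Ch25h 0.277 and Gm26902 0.181 CPM per kb. Reads of near-identical copies, such as the Lipo genes and the ribosomal protein copies, may have been split between genes in the counting, and their levels are uncertain.

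No flanking gene passed an adjusted p of 0.05 between the lpr and the non-lpr groups in the fit of 13 libraries (edgeR quasi-likelihood test, Benjamini-Hochberg adjustment over all genes), where 2 of 38070 genes passed (0.00525%). At an unadjusted p under 0.05 there were 8 members, 4 higher and 4 lower in the lpr groups, which is 11.4% of the members against 7.66% of all genes. With all 14 libraries by label, edgeR called 2 members, Rpp30 and Gm26902, among 25 genes in all (0.0657%). DESeq2 called 4 members on the 13 libraries, Gm26902, Rpp30, Lipa and AC125381.2, among 396 genes in all (1.04%), and limma-voom called the first 3 of these among 269 (0.707%). The median log2 difference of the members was 0.11, and that of all genes 0.01. Over the 28 members with a mean of at least 1 CPM the median was -0.01, and 13 of them were higher in the lpr groups. The median of the interval thus lay close to that of the genome, and a few members separated the groups.

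In 3 of the 70 members (4.29%) the values of the 8 lpr mice did not overlap those of the 5 non-lpr mice, against 0.578% of all genes. These were Gm26902, lower in the lpr mice (0.242% of all genes), and Lipa and Rpp30, higher in the lpr mice (0.336% of all genes). Among genes with a mean of at least 1 CPM, they were 2 of 28 members against 0.907% of 16104 genes. On chromosome 19 outside the interval, 10 of 988 tested genes did not overlap, 5 of these among 186 genes at 4.3 to 7.3 Mb. All 3 members lie telomeric of Fas. In each of them the library IRAK4-KD replicate 3 also fell on the non-lpr side, so that the 8 lpr mice did not overlap all 6 mice labelled non-lpr.

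Gm26902 (ENSMUSG00000097558.1, chromosome 19, 34474808 to 34481546, plus strand) is a long noncoding RNA gene that begins 147.0 kb telomeric of Fas. It was named after its values were seen, since its mean was below 1 CPM. It had 0.385, 0.368, 0.437 and 0.719 CPM in the MRL mice and 0.349, 0.317, 0.386 and 0.164 CPM in the MRL-IRAK4-KD mice. The C57BL6/J mice had 0.939, 1.50 and 1.02 CPM, and the IRAK4-KD mice 0.823 and 1.11 CPM, with 0.854 CPM in the library kept apart. Every lpr mouse lay below every non-lpr mouse, and MRL replicate 4 came nearest to the non-lpr range. The log2 difference was -1.47 ± 0.25 (SE, edgeR, unadjusted p = 5.9e-05, adjusted p = 0.129), and with all 14 libraries it was -1.44 (adjusted p = 0.0371). The exact 2-sided permutation test of 8 against 5 mice on log2(CPM + 0.1) gave p = 7.8e-04, the smallest it can give. The 8 lpr libraries held between 51 and 344 counts of the gene and the 5 non-lpr libraries between 332 and 444.

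Gm26902 shares sequence with Ch25h on the opposite strand. Ch25h (ENSMUSG00000050370.5, 34473778 to 34475164, minus strand) makes 25-hydroxycholesterol and is known as a gene induced by interferon. The exons of Gm26902 and Ch25h overlap over 159 bp, which is 4.29% of the exonic length of Gm26902 and 11.5% of that of Ch25h. The labels name a KAPA HyperPrep mRNA kit and the study's methods a SMART-seq and Nextera XT library, and whether the counting used strand is not stated, so reads in this stretch cannot be told apart by gene. The 159 shared bases lie at 34474808 to 34474966.

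Promoter windows of the 3 protein-coding genes whose values carry the results, Ch25h, Lipa and Rpp30, are shown because they place the starts of these genes beside their neighbors. They are RefSeq windows of 300 bp on GRCm38.p6, written 5′ to 3′ on the strand of the gene. Capitals mark 3 motifs searched on both strands, the TATA box as TATAAA, the CCAAT box as CCAAT and the GC box as GGGCGG, and no match overlapped another in these windows. The window of Ch25h, chr19:34475099-34475398 on the minus strand, lies within the span of Gm26902, that of Lipa is chr19:34527425-34527724 on the minus strand and that of Rpp30 is chr19:36083466-36083765 on the plus strand.
Ch25h: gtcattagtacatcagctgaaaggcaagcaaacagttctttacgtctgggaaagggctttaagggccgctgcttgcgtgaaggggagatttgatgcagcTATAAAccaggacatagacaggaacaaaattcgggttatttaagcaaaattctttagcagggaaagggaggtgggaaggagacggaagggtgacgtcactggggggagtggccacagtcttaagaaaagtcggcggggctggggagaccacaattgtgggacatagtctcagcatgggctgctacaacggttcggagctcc
Lipa: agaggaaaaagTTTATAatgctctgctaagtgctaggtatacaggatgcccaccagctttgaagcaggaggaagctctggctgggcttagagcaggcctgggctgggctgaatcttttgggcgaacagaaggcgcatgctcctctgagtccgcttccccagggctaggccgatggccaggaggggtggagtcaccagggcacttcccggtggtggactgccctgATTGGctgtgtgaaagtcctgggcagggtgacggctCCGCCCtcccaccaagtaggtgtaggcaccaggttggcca
Rpp30: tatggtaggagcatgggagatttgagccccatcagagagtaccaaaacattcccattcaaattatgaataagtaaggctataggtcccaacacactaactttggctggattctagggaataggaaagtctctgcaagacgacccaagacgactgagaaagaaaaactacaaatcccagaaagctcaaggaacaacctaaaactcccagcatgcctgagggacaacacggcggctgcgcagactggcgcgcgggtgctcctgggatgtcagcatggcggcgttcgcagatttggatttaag
The Ch25h window held 1 TATA box, the Lipa window held 1 TATA box, 1 CCAAT box and 1 GC box, and the Rpp30 window held none of the 3 motifs. Among 32851 promoter windows of the same length, 13.6% held the TATA box, 37.4% the CCAAT box and 35.7% the GC box. A match describes only the letters of the window. RefSeq windows were matched to 34 of the 70 members, and Gm26902 was not among them.

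Rpp30 (ENSMUSG00000024800.8, 36083716 to 36104777, plus strand) encodes a protein subunit of ribonuclease P, which trims the leader from transfer RNA precursors, and lies 1755.9 kb telomeric of Fas. It had 12.8, 11.6, 11.9 and 10.9 CPM in the MRL mice and 13.1, 13.1, 13.5 and 13.9 CPM in the MRL-IRAK4-KD mice. The C57BL6/J mice had 8.81, 9.23 and 9.06 CPM, and the IRAK4-KD mice 9.56 and 9.84 CPM, with 8.78 CPM in the library kept apart. The lowest lpr mouse lay above the highest non-lpr mouse, and the library kept apart was the lowest of all 14. The log2 difference was 0.43 ± 0.07 (SE, edgeR, unadjusted p = 7.8e-05, adjusted p = 0.134), and with all 14 libraries it was 0.45 (adjusted p = 0.03). The exact 2-sided permutation test of 8 against 5 mice gave p = 7.8e-04. The MRL-IRAK4-KD mice, at 13.4 ± 0.365 CPM (SD, n = 4), also lay above the MRL mice, at 11.8 ± 0.821 CPM (SD, n = 4), without overlap, and that difference was -0.17 ± 0.09 on the log2 scale, MRL minus MRL-IRAK4-KD (SE, edgeR, adjusted p = 0.494).

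Lipa (ENSMUSG00000024781.16, 34492318 to 34527474, minus strand) encodes lysosomal acid lipase, which frees cholesterol and fatty acids from lipids taken up by the cell, and lies 164.5 kb telomeric of Fas. It had 29.6, 22.3, 23.5 and 27.7 CPM in the MRL mice and 27.1, 24.6, 27.1 and 22.7 CPM in the MRL-IRAK4-KD mice. The C57BL6/J mice had 18.9, 20.4 and 19.2 CPM, and the IRAK4-KD mice 19.9 and 22.1 CPM, with 17.9 CPM in the library kept apart. The gap between the groups was narrow, since MRL replicate 2 at 22.3 CPM came next to IRAK4-KD replicate 2 at 22.1 CPM. The log2 difference was 0.34 ± 0.09 (SE, edgeR, unadjusted p = 0.00295, adjusted p = 0.408), and the exact 2-sided permutation test of 8 against 5 mice gave p = 0.00233. The summed level of 5 microglia markers was 306 to 398 CPM in MRL and 277 to 299 CPM in MRL-IRAK4-KD mice. It was 256 to 273 CPM in C57BL6/J and 268 to 277 CPM in IRAK4-KD mice, with 252 CPM in the library kept apart. Marker sums did not overlap between MRL and MRL-IRAK4-KD mice, whereas Lipa levels did. The sums were at least 277 CPM in the lpr mice and at most 277 CPM in the non-lpr mice. None of these markers was at 0, and their part in the result was not tested. In bulk tissue, more cells of a type and more RNA per cell cannot be told apart.

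**Figure D1:**
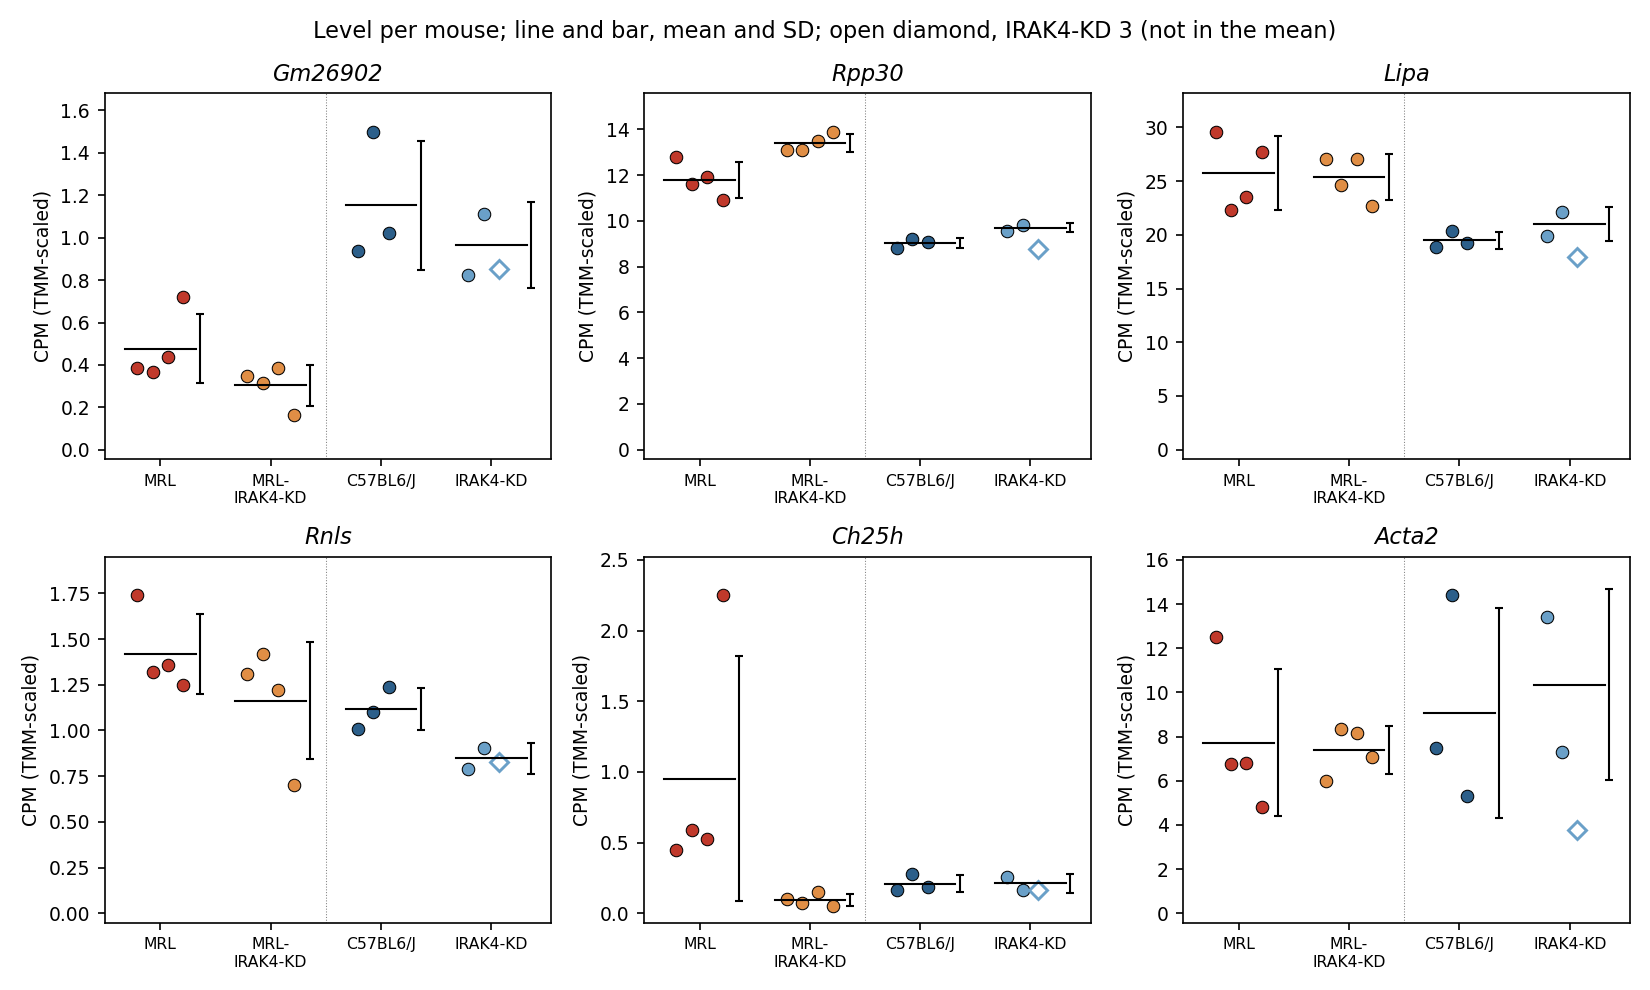
Level of 6 flanking genes in each mouse, in CPM after TMM scaling on a linear axis, by group, with the mean and SD of each group beside the points and the library IRAK4-KD replicate 3 as an open diamond outside the mean. In Gm26902, Rpp30 and Lipa the 8 lpr mice did not overlap the 5 non-lpr mice, and the diamond lay with the non-lpr mice. Rnls and Acta2 overlapped, and Ch25h was highest in MRL.

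The annotated transcripts of the members were tested in the same way. Of 187 transcripts of members tested, 0 passed an adjusted p of 0.05 in edgeR (24 of 105421 transcripts, 0.0228%), DESeq2 called 8 (1.67% of all transcripts) and limma-voom 1 (0.0854%), and 22 (11.8%, against 6.16% of all transcripts) had an unadjusted p under 0.05. In 5 of them (2.67%) the lpr and non-lpr mice did not overlap, against 0.358% of all transcripts, and these were a long and a short form of Gm26902, a coding and a retained-intron form of Rpp30, and a retained-intron form of Sgms1. The short form of Gm26902 (ENSMUST00000181777.1), of 2 exons and 1395 bp, ended at 34476618 and had 1, 0, 0 and 7 counts in MRL and 5, 0, 1 and 0 counts in MRL-IRAK4-KD mice. It had 43, 31 and 46 counts in C57BL6/J and 44 and 17 counts in IRAK4-KD mice, and 57 in the library kept apart. Its log2 difference was -4.49 ± 0.98 (SE, edgeR, adjusted p = 0.515), and limma-voom gave an adjusted p of 0.0179. The long form (ENSMUST00000181307.1), of 3 exons, had 0.384, 0.368, 0.433 and 0.690 CPM in MRL and 0.345, 0.317, 0.388 and 0.180 CPM in MRL-IRAK4-KD mice, and between 0.717 and 1.37 CPM in the 5 non-lpr mice. Both forms were lower in every lpr than in every non-lpr mouse, and the short form had at most 7 counts in any lpr library.

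Rpp30 separated in its coding form and in a form that keeps an intron. The coding transcript (ENSMUST00000025714.8) had 9.73 to 14.3 CPM in the lpr mice and 7.88 to 9.36 CPM in the non-lpr mice, a log2 difference of 0.45 ± 0.10 (SE, edgeR, adjusted p = 0.597). The retained-intron form (ENSMUST00000237841.1) had 0.414 to 0.685 CPM in the lpr mice and 0.193 to 0.311 CPM in the non-lpr mice, a log2 difference of 0.99 ± 0.24 (SE, edgeR, adjusted p = 0.614). In the library kept apart these were 8.27 and 0.183 CPM, the first within and the second below the non-lpr range. Counts of single transcripts are estimates that divide shared reads.

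**Figure D2:**
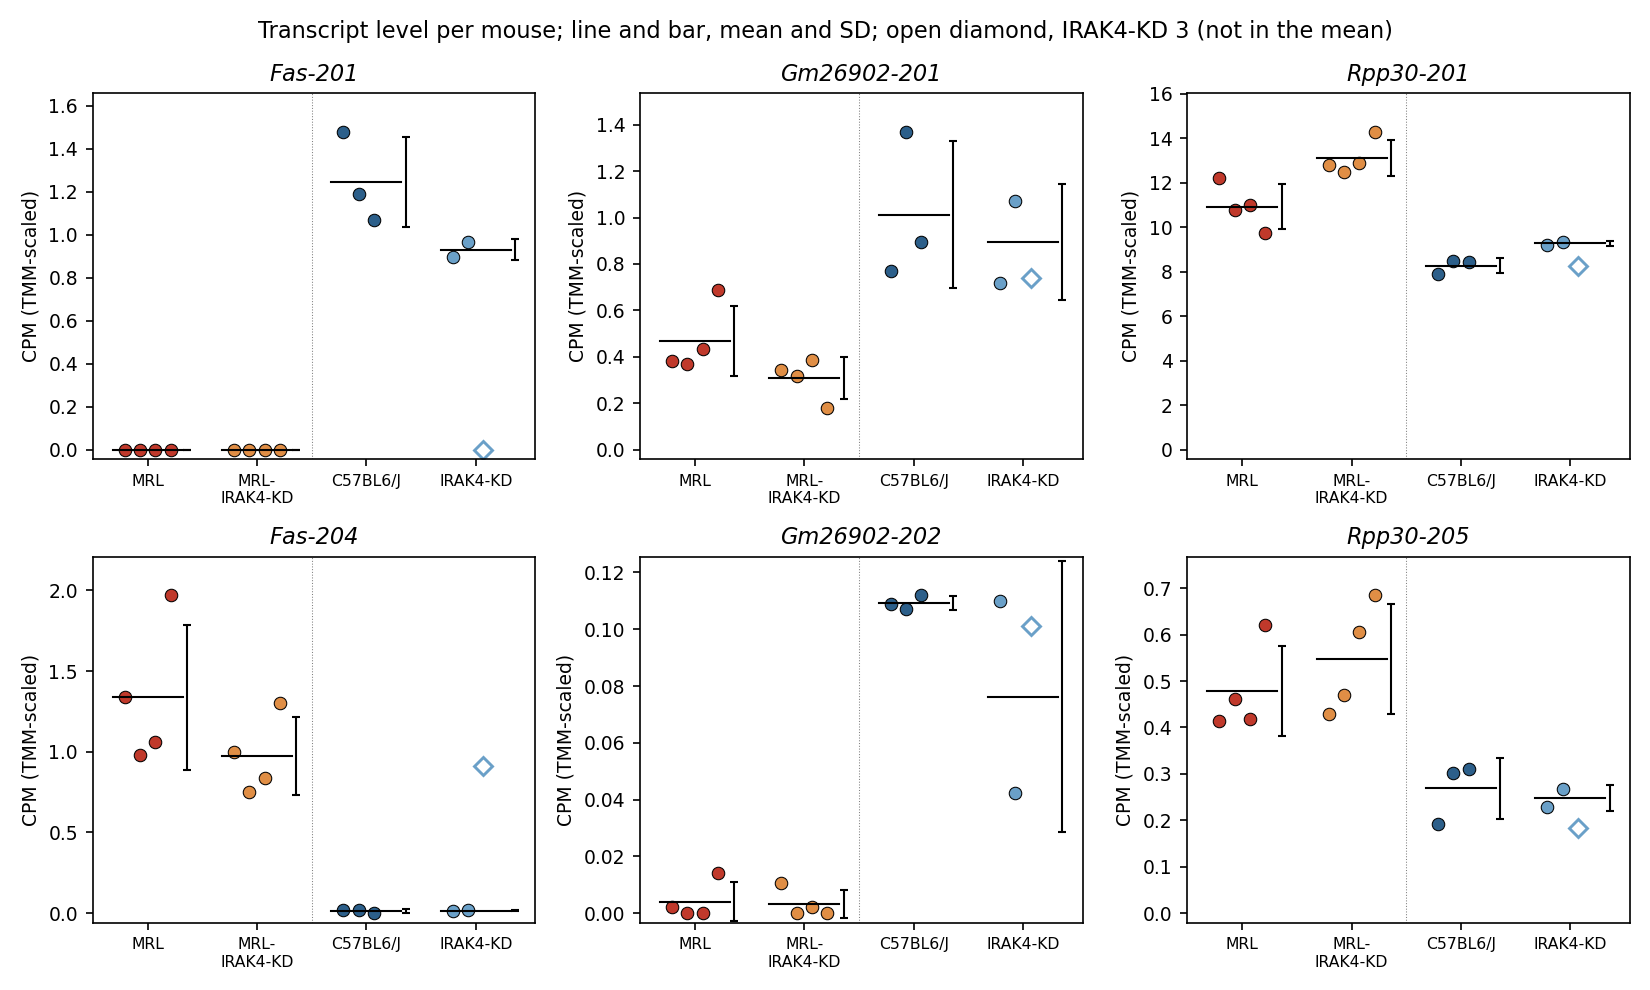
Level of 2 transcripts each of Fas, Gm26902 and Rpp30 in every mouse, in CPM after TMM scaling on linear axes, with the mean and SD of each group and the library IRAK4-KD replicate 3 as an open diamond outside the mean. The diamond lay with the lpr mice in both Fas transcripts and with the non-lpr mice in the 4 transcripts of Gm26902 and Rpp30.

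IRAK4-KD replicate 3 was next compared with the lpr and non-lpr mice at each separating gene. For all 3 members whose groups did not overlap it was nearer to the median of the non-lpr mice. Among 217 genes elsewhere in the genome whose groups did not overlap, it was nearer to the non-lpr median in 169 and to the lpr median in 48 (22.1%). Over the 28 members with a mean of at least 1 CPM, it was nearer to the lpr median in 16. It was the lowest of the 14 libraries in Acta2, Lipa, Rpp30 and Rpl10-ps6 and the highest in Pank1, Pcgf5, Hectd2 and Cpeb3. Of the 8 members at an unadjusted p under 0.05 it was nearer to the lpr median in 3, and of the 5 member transcripts whose groups did not overlap it was nearer to the non-lpr median in 4, the exception being the retained-intron form of Sgms1, with 0.457 CPM against 0.441 to 0.939 CPM in the lpr and 0.321 to 0.398 CPM in the non-lpr mice.

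The members were also counted by position. On the centromeric side 2 of 32 members (6.25%) and on the telomeric side 6 of 38 (15.8%) had an unadjusted p under 0.05, against 6.88% of the 988 tested genes of chromosome 19 outside the interval and 7.66% of all genes. Across 3 Mb windows outside the interval that share ran from 0 to 12.9%, the highest being 24 of 186 genes at 4.3 to 7.3 Mb. Within 500 kb of Fas there were 4 of 17 members with such a p, between 500 and 1500 kb 2 of 17, and beyond 1500 kb 2 of 36. Of the members with such a p, only Lipa and Rpp30 had a mean of at least 1 CPM. AC016791.1, AC016791.2 and AC120164.1 on the telomeric side and AC141640.1 on the centromeric side had at most 30 counts in any library. The numbers of members by position are small and partly rest on these low rows, and the difference between the sides was not tested. No 3 Mb window of chromosome 19 held a gene past the adjusted threshold in the fit of 13 libraries, and with all 14 libraries only the window with Gm26902 and Rpp30 did.

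**Figure D3:**
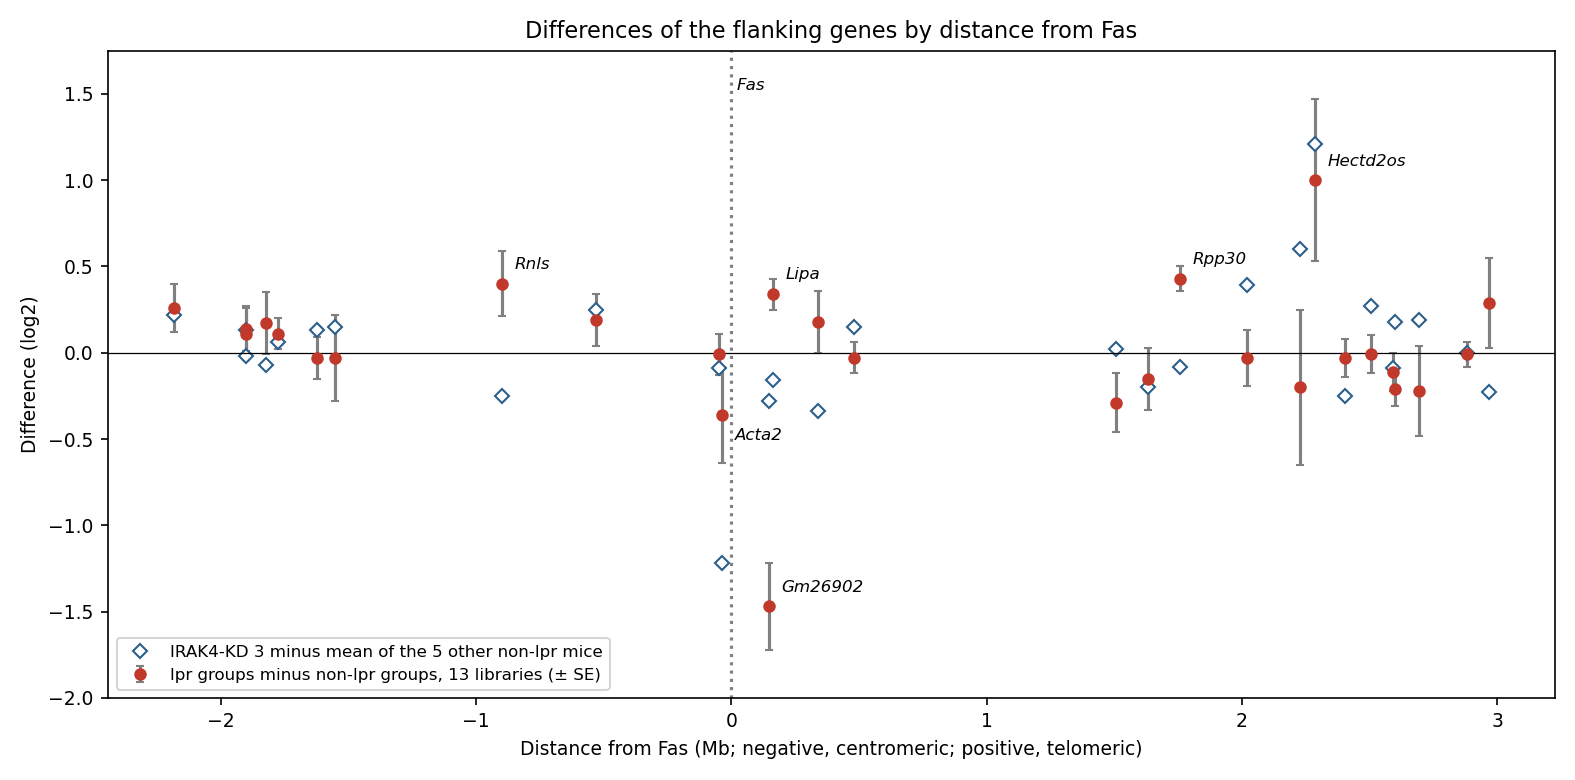
Log2 difference between the lpr and non-lpr groups with its SE (filled circles, 13 libraries, edgeR) against the distance from Fas in Mb, for 27 members with a mean of at least 1 CPM and Gm26902. Open diamonds give the log2(CPM + 0.1) of IRAK4-KD replicate 3 minus the mean of the 5 other non-lpr mice. Most circles lay within 2 SE of 0, while Gm26902 (-1.47), Lipa (0.34), Rpp30 (0.43) and Rnls (0.40) stood off the line. Their diamonds were at -0.28, -0.16, -0.08 and -0.25. Hectd2os had the largest positive difference (1.00), with its diamond at 1.21.

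The coding genes nearest to Fas on the centromeric side overlapped between the groups. Acta2, the smooth muscle actin, lies 35.1 kb from Fas and had 4.82 to 12.5 CPM in the lpr mice and 5.32 to 14.4 CPM in the non-lpr mice, with a log2 difference of -0.36 ± 0.28 (SE, edgeR, adjusted p = 0.843). The library kept apart had the lowest Acta2, at 3.77 CPM. In it 8 markers of mural cells summed to 93.3 CPM, against 93.4 to 98.9 CPM in the other IRAK4-KD and 101 to 128 CPM in the C57BL6/J mice. They summed to 134 to 145 CPM in MRL and 62.4 to 128 CPM in MRL-IRAK4-KD mice. The lowest mural sum, 62.4 CPM, was in MRL-IRAK4-KD replicate 4, and the part of these markers in the result was not tested. Stambpl1, a deubiquitinase, had 9.79 to 16.5 CPM in the lpr and 13.5 to 15.2 CPM in the non-lpr mice, with a difference of -0.01 ± 0.12 (SE). Ankrd22, an ankyrin repeat gene, was low, with 0.0345 to 0.249 CPM in the lpr and 0.0124 to 0.218 CPM in the non-lpr mice and a difference of 0.58 ± 0.70 (SE) that ran from 0.14 without IRAK4-KD replicate 1 to 2.18 without IRAK4-KD replicate 2, and 1219 bp of its exons are shared with Lipm on the opposite strand. On the telomeric side, Slc16a12, a monocarboxylate transporter, had 2.01 to 4.20 CPM in the lpr and 1.94 to 3.41 CPM in the non-lpr mice, with a difference of 0.18 ± 0.18 (SE).

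The acid lipases were represented by 8 of the 10 genes of that list, of which 2 had a mean of at least 1 CPM. Besides Lipa, this was Lipo3, with 5.01 to 10.1 CPM in the lpr and 6.56 to 8.57 CPM in the non-lpr mice and a difference of 0.19 ± 0.15 (SE, edgeR, adjusted p = 0.851). The other 6 lipases had means of 0.170 CPM or less. Lipf, the gastric lipase, was at 0 counts in 9 of the 14 libraries and had 148 counts in IRAK4-KD replicate 2. No lipase passed the adjusted threshold in edgeR on the 13 libraries, and 1 had an unadjusted p under 0.05, which was Lipa.

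The other lipid enzymes gave no call between the lpr and non-lpr groups. Of 5 members on that list 4 had a mean of at least 1 CPM, and none of the 5 passed either threshold. Asah2, the neutral ceramidase, had 7.06 to 14.2 CPM in the lpr and 7.84 to 10.7 CPM in the non-lpr mice, with a difference of 0.26 ± 0.14 (SE, edgeR, adjusted p = 0.721). Sgms1, a sphingomyelin synthase, differed by 0.11 ± 0.15 and Minpp1, an inositol polyphosphate phosphatase, by 0.11 ± 0.09.

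Ch25h, the fifth lipid enzyme, set MRL apart from the other 3 groups. It had 0.447, 0.586, 0.522 and 2.25 CPM in MRL mice, and 0.0990, 0.0702, 0.147 and 0.0483 CPM in MRL-IRAK4-KD mice. The C57BL6/J mice had 0.165, 0.278 and 0.182 CPM, the IRAK4-KD mice 0.258 and 0.165 CPM, and the library kept apart 0.162 CPM. All MRL mice lay above and all MRL-IRAK4-KD mice below the 5 non-lpr mice, which stood between them, and MRL replicate 4 was far above the other MRL mice. MRL exceeded MRL-IRAK4-KD mice by 3.37 ± 0.57 on the log2 scale (SE, edgeR, adjusted p = 0.0729, exact 2-sided permutation p = 0.0286, the smallest that 4 against 4 mice can give). With all 14 libraries in the fit the adjusted p was 0.0371, and without MRL replicate 4 in that fit the difference was 2.51 (adjusted p = 0.0364). With 1 mouse left out of the 14 libraries this call held without MRL replicate 1, 3 or 4 and was lost without any other mouse. On the 13 libraries DESeq2 called Ch25h (3.38, adjusted p = 2.5e-07) among 347 genes (0.911%), and limma-voom (2.64, adjusted p = 0.0482) among 486 (1.28%). Leaving 1 mouse out of the 13, edgeR called it only without MRL replicate 1 (adjusted p = 0.0468). In the 13-library edgeR fit 27 genes passed in this comparison (0.0709%), in the 14-library edgeR fit 37 (0.0972%). At an unadjusted p under 0.05 in the first of these fits there were 8 members (11.4%) against 9.9% of all genes. The groups did not overlap in 6 members (8.57%), of which 5 were higher in MRL, against 5.26% of all genes.

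The Ch25h differences had opposite signs with intact and with kinase-dead IRAK4, neither past the adjusted threshold in edgeR. MRL minus C57BL6/J was 2.19 ± 0.60 (SE, edgeR, adjusted p = 0.656), and MRL-IRAK4-KD minus IRAK4-KD was -1.21 ± 0.63 (adjusted p = 0.904). The interaction was 3.40 ± 0.86 (SE, edgeR, unadjusted p = 0.0017, adjusted p = 1). Between all lpr and non-lpr groups the difference was 0.49 ± 0.44 (SE), with 0.06 without MRL replicate 4, 0.69 without IRAK4-KD replicate 1 and 1.31 in a fit of the 2 pooled groups only. In the MRL mice the summed level of 5 endothelial markers was 125 to 198 CPM, against 79.8 to 103 CPM in MRL-IRAK4-KD, 77.0 to 93.4 CPM in C57BL6/J and 52.8 to 60.7 CPM in IRAK4-KD mice, and the microglia markers were also highest in MRL. The part of these markers in the result was not tested.

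The metabolic genes for cofactors, sulfate, glycogen and monocarboxylates were 5 members. The difference was positive in 2 of 5, and none passed either threshold in edgeR on the 13 libraries. Rnls (renalase, which oxidizes reduced nicotinamide cofactors; 33137747 to 33392295, minus strand) had 1.74, 1.32, 1.36 and 1.25 CPM in MRL and 1.31, 1.42, 1.22 and 0.699 CPM in MRL-IRAK4-KD mice. The C57BL6/J mice had 1.01, 1.10 and 1.24 CPM and the IRAK4-KD mice 0.788 and 0.906 CPM, with 0.825 CPM in the library kept apart. The lpr and non-lpr mice overlapped, and MRL-IRAK4-KD replicate 4, at 0.699 CPM, lay below every non-lpr mouse. The difference was 0.40 ± 0.19 (SE, edgeR, adjusted p = 0.655). With all 14 libraries, limma-voom called Rnls at 0.42 (adjusted p = 0.0409) among 942 of 38070 genes. Papss2, which makes the sulfate donor, and Pank1, which starts coenzyme A synthesis, both differed by -0.03, with SE of 0.12 and 0.09.

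In Ppp1r3c the kinase-dead groups had the lower values. It had 48.3, 54.5, 52.2 and 55.1 CPM in MRL and 50.8, 50.8 and 62.4 CPM in C57BL6/J mice. The kinase-dead groups had 49.0, 42.4, 42.6 and 31.1 CPM in MRL-IRAK4-KD and 38.7 and 44.4 CPM in IRAK4-KD mice, with 41.0 CPM in the library kept apart. The difference between kinase-dead and intact IRAK4 was -0.37 on the log2 scale (SE 0.11, edgeR, unadjusted p = 0.00507, adjusted p = 0.529), and the ranges overlapped through MRL replicate 1 and MRL-IRAK4-KD replicate 1. No member passed the adjusted threshold there in edgeR (58 of 38070 genes, 0.152%; 6 members, or 8.57%, at an unadjusted p under 0.05 against 7.31% of all genes), DESeq2 called Ch25h among 329 genes (0.864%) and limma-voom called Ppp1r3c among 286 (0.751%). The lpr and non-lpr groups differed in Ppp1r3c by -0.03 ± 0.11 (SE).

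The genes of protein turnover and of the cytoskeleton, receptors and signaling gave no call between the lpr and non-lpr groups in edgeR. All 5 members for protein turnover had a mean of at least 1 CPM and log2 differences of -0.20 to -0.01. March5 had 49.0 to 56.5 CPM in the lpr and 47.9 to 56.5 CPM in the non-lpr mice and a difference of -0.01 ± 0.07 (SE). Tnks2, a poly-ADP-ribosyltransferase, differed by -0.01 ± 0.11 and Atad1, which pulls misplaced proteins out of membranes, by -0.03 ± 0.25. Of 6 members for the cytoskeleton, receptors and signaling 3 had a mean of at least 1 CPM, with differences of -0.36 to -0.11 that included Htr7, a serotonin receptor, at -0.15 ± 0.18, and Fgfbp3 at -0.11 ± 0.11.

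Of the RNA and chromatin genes, Rpp30 had a positive and the 3 others a negative difference, and 1 of 4 had an unadjusted p under 0.05. Btaf1, an ATPase that lifts the TATA-binding protein off DNA, had 37.2, 37.6, 37.4 and 39.7 CPM in MRL and 28.4, 31.4, 28.0 and 20.8 CPM in MRL-IRAK4-KD mice. The C57BL6/J mice had 43.9, 34.2 and 39.8 CPM and the IRAK4-KD mice 32.5 and 38.2 CPM, with 42.4 CPM in the library kept apart. The MRL-IRAK4-KD mice lay below all others, and MRL minus MRL-IRAK4-KD was 0.49 ± 0.13 (SE, edgeR, adjusted p = 0.437), which DESeq2 called among 347 genes (0.911%) and limma-voom among 486 (1.28%). Pcgf5, a Polycomb RING finger protein, differed between the lpr and non-lpr groups by -0.03 ± 0.16 and Cpeb3, which binds messenger RNA, by -0.22 ± 0.26.

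The single comparisons with intact and with kinase-dead IRAK4, which share no mice, gave no calls among the members in edgeR on the 13 libraries. MRL against C57BL6/J had 0 calls among all 38070 genes by edgeR (0%), with 8 members (11.4%) at an unadjusted p under 0.05 against 5.16% of all genes. MRL-IRAK4-KD against IRAK4-KD had 11 calls (0.0289%) and 7 such members (10.0%) against 4.36% of all genes, and the interaction had 1 call (0.00263%) and 3 such members (4.29%) against 2.93% of all genes. In MRL against C57BL6/J, DESeq2 called Ch25h, Gm26902 and Rpp30 among 186 genes (0.489%), and limma-voom called Gm26902 among 82 (0.215%). In MRL-IRAK4-KD against IRAK4-KD, DESeq2 called Gm26902 and Rpp30 among 136 genes (0.357%), and limma-voom called Rpp30 among 118 (0.31%). Gm26902 differed by -1.27 ± 0.33 and -1.67 ± 0.37, Rpp30 by 0.39 ± 0.10 and 0.46 ± 0.11, and Lipa by 0.41 ± 0.12 and 0.26 ± 0.14 (log2, SE) in the 2 comparisons. Of the 28 members with a mean of at least 1 CPM, 17 had the same sign in both.

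**Figure D4:**
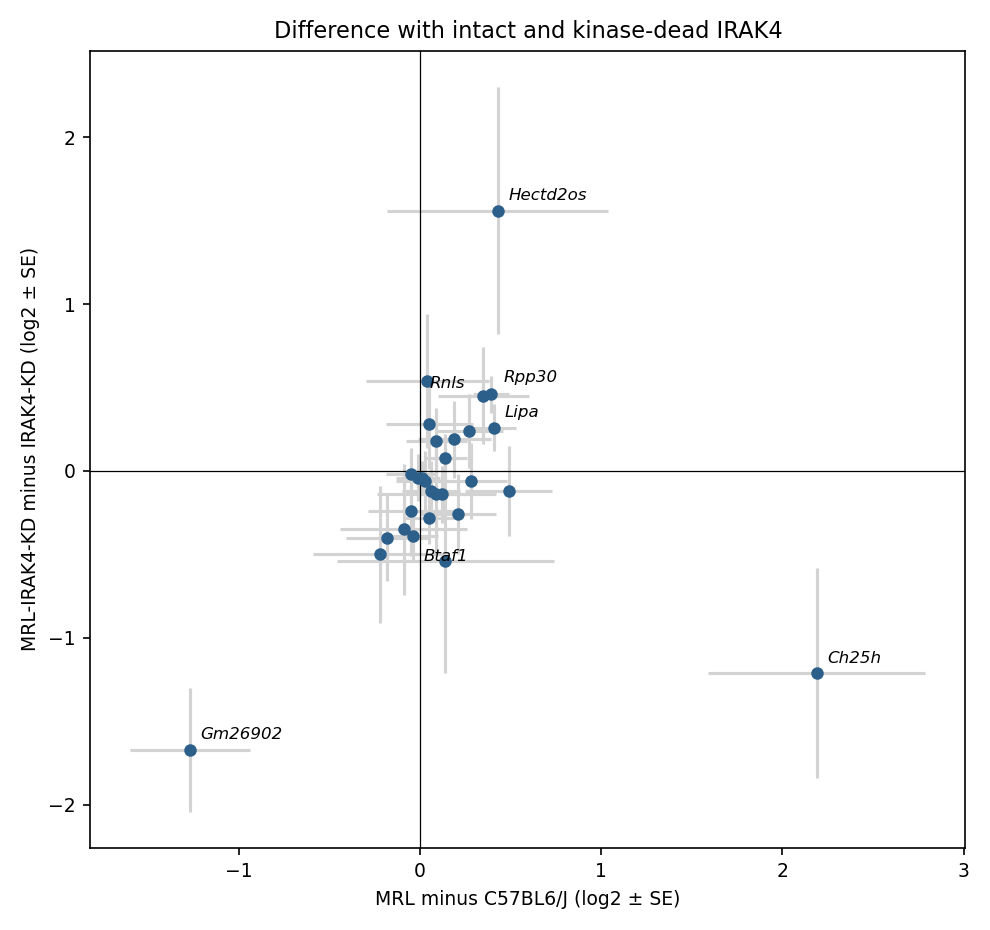
Log2 difference MRL minus C57BL6/J (horizontal) and MRL-IRAK4-KD minus IRAK4-KD (vertical), each with its SE, for 27 members with a mean of at least 1 CPM, Gm26902 and Ch25h, from the fit of 13 libraries. Gm26902 lay in the lower left (-1.27, -1.67), Rpp30 (0.39, 0.46) and Lipa (0.41, 0.26) in the upper right, and Ch25h in the lower right (2.19, -1.21).

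MRL-IRAK4-KD replicate 4 gave extreme values across the interval. It was the lowest of the 14 libraries in 19 and the highest in 6 of the 28 members with a mean of at least 1 CPM, against 40.6% and 32.9% of the 16104 genes with such a mean. The widest gap was in Hectd2, a HECT ubiquitin ligase, with 2.27 CPM against 39.5 to 40.5 CPM in the other MRL-IRAK4-KD mice. Its antisense partner Hectd2os had 6.59 CPM against 1.04 to 1.05 CPM, and the 2 genes share 1834 bp of exon. Between the lpr and non-lpr groups Hectd2os differed by 1.00 on the log2 scale in edgeR on 13 libraries, which was not called. With 1 of these mice left out, that difference ran from 0.40 to 1.21. In the library kept apart, both Hectd2, at 55.2 CPM, and Hectd2os, at 2.26 CPM, were above the other non-lpr mice. Without MRL-IRAK4-KD replicate 4, edgeR on the remaining 12 libraries called Gm26902 at -1.37 and Rpp30 at 0.42 (both adjusted p = 0.018) among 86 genes in all.

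Among the members under 1 CPM, AC125381.2 was also named after its values were seen. This lincRNA, on the centromeric side, had 0.0276 to 0.148 CPM in the lpr mice and 0.00737 to 0.0379 CPM in the non-lpr mice, and 0 CPM in the library kept apart. Its log2 difference was 2.00 ± 0.59 (SE, edgeR, adjusted p = 0.453), from 12 to 52 counts in the lpr and 3 to 14 counts in the non-lpr libraries by its single tested transcript. The 4 other members with an unadjusted p under 0.05, AC016791.1, AC016791.2, AC120164.1 and AC141640.1, had 0 counts in some libraries and at most 30 counts in any, and no fold is given for them.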

How the data were processed

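Poly(A) RNA was sequenced from 14 hippocampi. The authors deposited counts per gene and per transcript, at 1.402 to 2.083 counts per read listed by the sequencing core. A count is therefore not 1 listed read, and the cause of this was not tested. The submitters' processing notes name HISAT2 2.1.0, SAMtools 1.9, StringTie 2.1.0 and mm10. Whether counting used strand is not given in the sources used here. Features without an Ensembl identifier held 0.069% of counts and were left out. A total of 10 counts over the libraries was the minimum for a gene to enter the fit by edgeR 4.0.16 (R 4.3.3, TMM scaling, robust quasi-likelihood test, 4 group means, 13 libraries), with Benjamini-Hochberg adjustment at 0.05, after a check on simulated data. limma-voom (limma 3.58.1), DESeq2 1.42.0, other filters and scalings, a replicate block, all 14 libraries and leaving out each mouse were alternatives. Exact permutation tests used log2(CPM + 0.1). Libraries of 279941472 to 572398312 counts set the precision. The members and lists were chosen with earlier results of these data known. Named genes were the 5 members with the smallest p and a mean of at least 1 CPM, the 3 coding members nearest to Fas on each side, and the coding members of the role lists with such a mean (1 gene that meets this rule is not reported here); setting MRL against MRL-IRAK4-KD was added after values were seen.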

Additional observations from a re-analysis of the deposited data

Results flagged for a closer look

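In groups of 4 mice, the highest or lowest value stood apart from the other 3 by Dixon's criterion in 10 of 54 group values examined for the named genes, where chance gives about 1 in 20. Of these, 6 were in MRL-IRAK4-KD replicate 4. Its level was 34.4 CPM for Minpp1 against 46.3 to 48.4 in the other 3 mice, 29.3 CPM for Atad1 against 105 to 106, and 21.4 CPM for Pank1 against 29.7 to 31.0. It was 2.27 CPM for Hectd2 against 39.5 to 40.5, 11.3 CPM for Cpeb3 against 42.5 to 48.6, and 6.59 CPM for Hectd2os against 1.04 to 1.05. In the MRL group, Ch25h had 2.25 CPM in replicate 4 against 0.447 to 0.586, and Btaf1 had 39.7 CPM in replicate 4 against 37.2 to 37.6. Tnks2 had 182 CPM in MRL replicate 1 against 144 to 151, and Cpeb3 had 36.5 CPM in MRL replicate 2 against 48.0 to 49.4.

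Ch25h lay above all non-lpr mice in every MRL mouse and below them in every MRL-IRAK4-KD mouse, with an interaction of 3.40 ± 0.86 on the log2 scale (SE, edgeR, unadjusted p = 0.0017, adjusted p = 1 over all genes), which did not pass after adjustment; DESeq2 on 14 libraries called it (3.29, adjusted p = 0.0214).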

How the results depend on the processing

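Between the lpr and non-lpr groups, edgeR on 13 libraries called 0 members, DESeq2 4, limma-voom 3, edgeR on all 14 libraries 2, DESeq2 and limma-voom on 14 libraries 4 each, and leaving out 1 mouse 0 to 3. All genes called were 2, against 396 (DESeq2), 269 (limma-voom), 1 (replicate block), 0 (the 2 pooled groups only), 25 (14 libraries), 761 (14, DESeq2), 942 (14, limma-voom), 5 (14, replicate block) and 0 to 335 (1 mouse left out); without MRL-IRAK4-KD replicate 4 they were 86 of 13 and 335 of 14 libraries. Leaving any mouse other than MRL replicate 4 or MRL-IRAK4-KD replicate 4 out of the 14 libraries lost the calls of both Gm26902 and Rpp30. MRL against C57BL6/J had 3 members by DESeq2 and 1 by limma-voom in either set of libraries. MRL-IRAK4-KD against IRAK4-KD had 2 and 1, on 14 libraries 2 and 3, and 0 to 1 with 1 mouse left out. The interaction had 1 (14, DESeq2). Kinase-dead against intact IRAK4 had 1 and 1, on 14 libraries 2 and 1, and 0 to 1 with 1 mouse left out. MRL against MRL-IRAK4-KD had 1 on 14 libraries, 2 by DESeq2, 3 by limma-voom, 2 and 2 on 14 libraries, and 0 to 1 with 1 mouse left out. In each of these comparisons and in the interaction, DESeq2 and limma-voom also called more of all genes on 14 than on 13 libraries. That rise came with more members called in some of these and not in others. By DESeq2, 4 members were called between the lpr and non-lpr groups in both sets of libraries. Transcripts of members called were 8 by DESeq2 and 1 by limma-voom, and 9 and 3 on 14 libraries. The share of all transcripts called on 14 libraries is not given here, so these 14-library counts have no background. By position, 6 telomeric members passed an unadjusted p under 0.05 and 0 the adjusted one. The cause of these differences was not tested.

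Of 19 pairs of mice with the same replicate number, 5 had a correlation over 0.1 (range -0.207 to 0.357). Pairs with different numbers ranged from -0.39 to 0.374, and whether the number paired mice was not tested. Uncalled log2 differences near 0 changed sign. With the replicate block they were Atad1 0.15, Hectd2 0.05, Pank1 0.04, Papss2 0.03, Pcgf5 0.08, Ppp1r3c 0.01, Stambpl1 0.08 and Tnks2 0.08, and with the block on 14 libraries Acta2 0.01, Atad1 0.12, Hectd2 0.01, Pcgf5 0.01, Ppp1r3c 0.02, Stambpl1 0.09 and Tnks2 0.03. By limma-voom they were Atad1 0.11, Pank1 0.03, Papss2 0.02, Pcgf5 0.09, Ppp1r3c 0.02, Stambpl1 0.05 and Tnks2 0.03, and on 14 libraries Atad1 0.07, Stambpl1 0.06, and Pank1, Pcgf5 and Ppp1r3c 0.00. On 14 libraries Stambpl1 was 0.00 by edgeR and DESeq2, and with the 2 pooled groups only Tnks2 was 0.00. Leaving 1 mouse out of the 13 or the 14 libraries gave Papss2 -0.10 to 0.02, Atad1 -0.11 to 0.11, Stambpl1 -0.05 to 0.08, Acta2 -0.55 to 0.10, Pank1 -0.09 to 0.03, Pcgf5 -0.15 to 0.08, Ppp1r3c -0.08 to 0.03, Tnks2 -0.09 to 0.05 and March5 -0.04 to 0.02.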
